A study of Mus musculus with 4 samples.

Results

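Elastase was set against phosphate-buffered saline in the lungs of orchiectomized mice, which leaves 2 of the 4 arrays of the series, ORX/PPE and ORX/PBS. ORX was read as orchiectomy, from the testosterone deficiency in the study's title, and PPE was taken to be porcine pancreatic elastase, from the elastase model of emphysema named there. Both arrays took lung RNA of C57BL/6J mice, all of these mice had undergone ORX, and the groups differed in the inhaled agent, PPE or PBS, with a time of 3 weeks given for both. Each array carried a pool made from 5 mice, so each group was 1 array, there were no replicates, no test was possible, and how far the mice of a pool vary is not known. The remaining arrays, sham/PBS and sham/PPE, took the same strain, tissue, time and pool size after sham surgery and are given beside the results. Dose of elastase, age of the mice and the interval between surgery and inhalation were not given in the sources used here. Whole lung holds many cell types, and a lower signal cannot be told apart as fewer cells of a type or less RNA per cell.

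Elastase breaks the elastin fibres that let alveolar walls recoil, and its instillation into rodent lungs is a long-used model of emphysema. Macrophages and neutrophils that enter the injured lung release further proteases, among them the macrophage elastase MMP12, while serpins, secretory leukocyte inhibitors and tissue inhibitors of metalloproteinases hold them in check. Removal of the testes takes away most circulating testosterone.

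Values printed as scaled signal are the processed intensity of a gene's brightest probe, with each array divided by its own 75th percentile and multiplied by 878.6, the geometric mean of the 4 percentiles. A difference is log2 of ORX/PPE minus log2 of ORX/PBS. Of 26782 genes named on the array, 19658 were well above background on both arrays, 1243 on 1 of them and 5881 on neither. A gene past 2-fold is called higher or lower as a size, not as a test. The 75th percentile was 993.8 on ORX/PBS and 855.6 on ORX/PPE before scaling, and the scaled differences had a median of 0.00, an SD of 0.27 and a central 95% range from -0.53 to 0.60. Epithelial markers of lung were bright on both arrays: Sftpc, the surfactant protein of alveolar type 2 cells, read 418980 with PPE and 380580 with PBS, and Ager, of alveolar type 1 cells, read 189130 and 184380. The endothelial markers went both ways, with Cdh5 at 17223 with PPE and 15235 with PBS and Pecam1 at 1096 and 1330.

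In all, 88 genes were higher with PPE, 0.448% of those measured, and 47 were lower, 0.239%. Either direction held for 135 genes, 0.687%. Over all genes measured 50.4% stood above 0 and 49.6% below. The counts by list given below are to be set beside these shares. By signal, the 3 brightest named genes were Chil3, Clca1 and Wfdc21 on the higher side and Myh6, Sln and Nppa on the lower side. Signal mattered for these counts: of 4 equal groups of genes by signal, the dimmest, from 10.1 to 104.4, held 100 of the 135 genes, and the brightest held 6. Another background correction, normexp with an offset of 50, which shrinks differences of dim probes, left 17 higher and 8 lower genes past 2-fold. The SD of the differences fell from 0.40 in the dimmest group to 0.16 in the brightest. Of the 88 higher genes 24, and of the 47 lower genes 7, bear only clone, locus or receptor-family names and are not listed here.

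**Figure D1:**
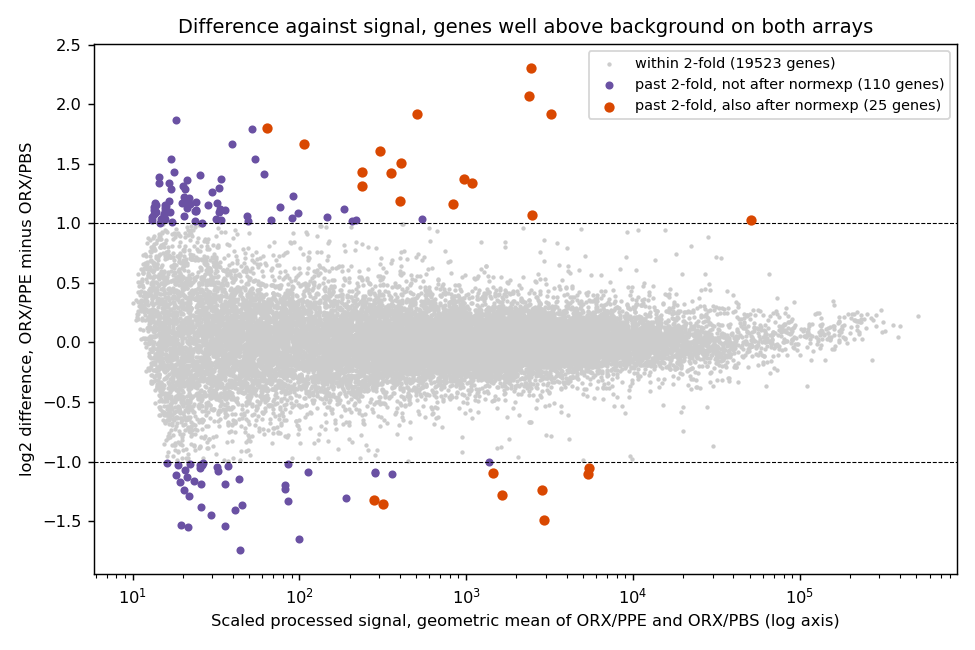
Each point is 1 of 19658 genes well above background on both arrays, with the scaled signal (geometric mean of ORX/PPE and ORX/PBS, log axis) across and the log2 difference up, and dashed lines at 2-fold. Purple marks the 110 genes past 2-fold in the main values only and orange the 25 that stayed past 2-fold after normexp correction. The purple points crowd at low signal, and orange points lie at higher signal.

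Sequences upstream of 6 genes are shown because these genes carry the macrophage and metallothionein results below and their promoters hold matches to the patterns searched. All come from the RefSeq promoter table of build GRCm38.p6, run 5′ to 3′ on the gene's strand and end at the base before the annotated start. The genes were picked with their values known. Capitals mark the motif, searched on both strands. For the metallothioneins Mt2 and Mt1, small proteins that bind zinc and copper, capitals mark the core of the metal response element bound by MTF1, TGCACNC or TGCGCNC. These stretches are chr8:94172368-94172617 and chr8:94178839-94179088, both on the plus strand.
Mt2: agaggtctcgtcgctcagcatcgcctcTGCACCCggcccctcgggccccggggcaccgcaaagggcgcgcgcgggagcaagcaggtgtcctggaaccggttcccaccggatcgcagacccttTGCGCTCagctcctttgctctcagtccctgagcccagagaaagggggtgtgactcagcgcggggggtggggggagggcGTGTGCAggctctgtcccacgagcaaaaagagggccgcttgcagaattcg
Mt1: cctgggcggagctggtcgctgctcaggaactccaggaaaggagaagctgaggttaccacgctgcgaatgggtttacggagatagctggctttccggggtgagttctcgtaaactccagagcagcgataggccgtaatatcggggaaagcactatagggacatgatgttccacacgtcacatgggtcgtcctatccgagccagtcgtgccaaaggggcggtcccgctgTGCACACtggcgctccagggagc

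Mt2 held 3 matches and Mt1 held 1 in the stretches shown, which stop before the annotated start. The shares given for all promoters are over longer windows that take in 50 bases past the start, so they are not matched to these stretches. TGCACNC occurred in 12.6% and TGCGCNC in 15.4% of all 32851 promoters of 300 bases in the table, and either occurred in 25.7%, so a match is common. For Ctsd, the lysosomal protease cathepsin D, capitals mark the core of the CLEAR element bound by TFEB, TCACGTGA, in chr7:142387828-142387977 on the minus strand. It occurred in 0.974% of the promoters.
Ctsd: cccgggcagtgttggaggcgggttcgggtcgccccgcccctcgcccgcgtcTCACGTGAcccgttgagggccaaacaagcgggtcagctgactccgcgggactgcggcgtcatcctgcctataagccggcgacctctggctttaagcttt

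For 3 macrophage genes, capitals mark TGANTCA, which 7.81% of the promoters held. It is a loose form of the site of AP-1 factors, with any middle base. The matches in Mmp12 and Cd68 were TGAGTCA. The match in Trem2 was TGAATCA, which lacks the middle C or G of the AP-1 consensus. Trem2 and Mmp12 lie on the plus strand, at chr17:48346301-48346400 and chr9:7347274-7347373, and Cd68 on the minus strand at chr11:69666171-69666330.
Trem2: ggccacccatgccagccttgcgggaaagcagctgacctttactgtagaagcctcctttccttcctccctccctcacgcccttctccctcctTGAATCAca
Mmp12: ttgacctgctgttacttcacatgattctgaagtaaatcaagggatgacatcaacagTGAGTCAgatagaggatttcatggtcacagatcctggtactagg
Cd68: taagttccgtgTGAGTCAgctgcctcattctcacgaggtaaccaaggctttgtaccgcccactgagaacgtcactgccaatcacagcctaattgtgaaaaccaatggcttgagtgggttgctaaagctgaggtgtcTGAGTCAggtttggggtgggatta

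Of 24 lipid-associated macrophage genes with a promoter in the table, 7 held TGANTCA (Cd68, Gpnmb, Igf1, Itgax, Mmp12, Psap and Trem2), against 8.97% of all 27025 genes. Of the 17 higher genes that also passed 2-fold after normexp, 14 had a promoter and 3 of them held it (Gpnmb, Mmp12 and Trem2). All 3 are members of the lipid-associated list too. Of the 8 lower genes that also passed 2-fold after normexp, 5 had a promoter and 1 of them held it (Cd209f). In other sets searched, 0 of 10 cathepsins, 0 of 26 immediate early genes and 2 of 29 glucocorticoid and fasting genes held TGANTCA. The CLEAR core was held by 1 of the 24 lipid-associated genes (Ctsd) and 2 of 10 cathepsins (Ctsa and Ctsd), against 1.12% of all genes. It was also held by 1 of the 14 higher genes (Il1r2), 1 of 29 glucocorticoid and fasting genes and 1 of 26 immediate early genes. A metal response core was held by 12 of the 29 glucocorticoid and fasting genes and 13 of the 26 immediate early genes, against 28.2% of all genes. These matches describe letters in the window and were not tested for use in lung.

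A macrophage gene opened the list of higher genes. Marco, a scavenger receptor of alveolar macrophages that takes up particles and bacteria, had a scaled signal of 5438 on ORX/PPE and 1103 on ORX/PBS, a difference of 2.30 or 4.93-fold, the farthest of all genes measured. Sham lungs read 4584 with PPE and 1310 with PBS, so both PPE arrays lay above both PBS arrays. Chil3, a chitinase-like protein secreted by macrophages, read 73016 with PPE and 35820 with PBS, 1.03 higher, and in sham lungs 57751 and 28203. Its difference in ORX lungs fell just inside 2-fold after quantile normalization, at 0.997, and in the series' value table, at 0.995. Not every gene of resident alveolar macrophages went along: Siglecf, a sialic acid receptor, read 801 and 863. Car4, a carbonic anhydrase that the endothelial list holds too, read 1454 and 2030. Of 34 measured alveolar macrophage genes, 2 were higher and 0 lower, 19 stood above 0 and the median difference was 0.07. On ORX/PPE 18 of the 34 had their highest value of the 4 arrays, against 24.5% of all genes measured on 4, and the list's median was 0.35 higher on ORX/PBS than on sham/PBS. Fabp4, a fatty acid carrier of macrophages and fat cells, read 6600 and 8525, against 14920 and 6666 in sham lungs.

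Genes of lipid-laden macrophages stood higher as a list. Trem2, a lipid-sensing receptor, read 1718 with PPE and 679 with PBS, 1.34 higher, beside 1325 and 477 in sham lungs. Gpnmb, a glycoprotein of phagolysosomes, read 688 and 242, 1.51 higher, beside 517 and 209. Mmp12, the macrophage elastase, read 392 and 146, 1.43 higher, beside 203 and 114, while its other probe differed by 0.47. For these 3 genes both PPE arrays lay above both PBS arrays, and ORX/PPE was the highest of the 4. The lysosomal protease gene Ctsk read 6777 and 3499, 0.95 higher, and Ctsd read 40593 and 24698, 0.72 higher. Cd68, a lysosomal membrane protein of macrophages, read 4474 and 3116, 0.52 higher, with its other probes at 0.19 and 0.23. Of the 30 list members, 3 were higher and 0 lower, and 25 stood above 0 with a median of 0.26, against 50.4% above 0 and a median of 0.00 over all genes. In sham lungs the list's median was 0.49, and the 25 members above 0 in ORX lungs were above 0 there too. Apoe, the lipid carrier, at 42635 and 41634, and the tetraspanin Cd9, at 29674 and 31150, were among those within a few percent.

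Alternative activation and interstitial macrophage genes were also listed. Chil4, a chitinase-like relative of Chil3, read 376 with PPE and 151 with PBS, 1.32 higher, and 248 and 147 in sham lungs. Retnla, a secreted protein of alternatively activated macrophages and airway cells, read 29303 and 16731, 0.81 higher, and the arginase gene Arg1 read 103 and 61.8, 0.73 higher. Ccl24, a chemokine for eosinophils, read 154 and 275, a difference of -0.83. Of 22 measured alternative activation genes, 2 were higher and 0 lower, with a median of 0.04. Cd209f, a C-type lectin, read 176 with PPE and 440 with PBS, a difference of -1.32, and 235 and 421 in sham lungs, so both PPE arrays lay below both PBS arrays. Folr2, a folate receptor of perivascular and interstitial macrophages, read 196 and 415, a difference of -1.08, beside 271 and 351, and fell within 2-fold after normexp at -0.87. Timd4, another marker of long-lived tissue macrophages, read 37.0 and 65.0. Of 33 measured monocyte and interstitial macrophage genes, 1 was higher (Cd209e, dim on both arrays and 1.12 higher, which normexp left at 0.43), 2 were lower and 23 stood below 0, with a median of -0.12.

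**Figure D2:**
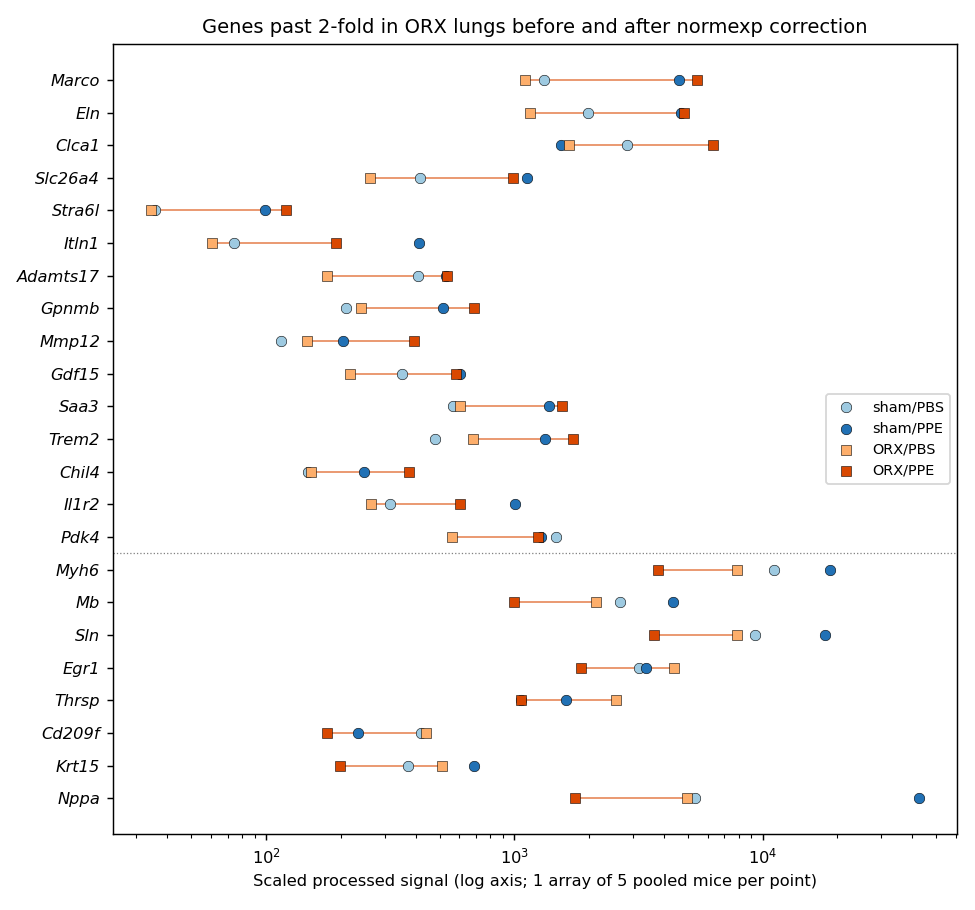
Scaled signal (log axis) on each of the 4 arrays for the 15 highest and all 8 lower genes that passed 2-fold in ORX lungs before and after normexp correction, with 1 point per array and a line joining ORX/PBS to ORX/PPE. Squares are ORX and circles sham arrays, dark points PPE and light points PBS. Marco, Eln, Gpnmb, Trem2 and Saa3 have both dark points to the right of both light ones, whereas Clca1 and Pdk4 have a dark sham point at or left of the light sham point, and Nppa reads 42677 on sham/PPE against 1761 on ORX/PPE.

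Among elastic fibre genes, Eln alone passed 2-fold. Eln, which encodes elastin itself, read 4839 with PPE and 1157 with PBS, 2.06 higher or 4.18-fold, and another probe differed by 1.56. Sham lungs read 4684 and 1979, so the PPE arrays were close to each other and ORX/PBS was the lowest of the 4. Ltbp2, a latent TGF-beta binding protein that sits on elastic fibres, read 14936 and 7787, 0.94 higher, with another probe at 0.29. Lox, the oxidase that crosslinks elastin and collagen, read 5138 and 3286, 0.65 higher, and its other probe 0.54 higher. The microfibril genes Mfap5, at 10424 and 6790, and Fbn1, at 2363 and 1748, differed by 0.62 and 0.44. On the other side stood the lysyl oxidase relatives Loxl4 at -0.62 and Loxl3 at -0.61. Fbln5, needed to assemble elastic fibres, read 9672 and 9430. Of 25 elastic fibre genes, 18 stood above 0, with a median of 0.12, and 14 were above 0 in both surgeries.

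No collagen chain passed 2-fold. Col8a1, a short-chain collagen of vessel walls, came closest at 3051 with PPE and 1568 with PBS, 0.96 higher, beside 2149 and 1449 in sham lungs. Col5a2, a chain of fibril-nucleating collagen V, read 554 and 326, and Col3a1, the main chain of collagen III, read 23973 and 16106, 0.57 higher. Col1a1 read 7647 and 6442. Of 29 measured chains 20 stood above 0, with a median of 0.13. Tnc, a glycoprotein of injured and developing matrix, read 118 and 65.6, 0.84 higher, and another probe of it 1.31 higher, beside 106 and 55.0 in sham lungs. It had the highest difference of 32 measured matrix proteoglycans and glycoproteins. In that list 0 passed 2-fold, 20 stood above 0 and 12 below, and the median was 0.03. Ccn1 was the lowest at -0.53, and the proteoglycan gene Dcn stood at -0.37.

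Listed proteases other than Mmp12 stayed within 2-fold with 1 exception. Adamts17, a metalloprotease linked to fibrillin matrix, read 534 with PPE and 175 with PBS, 1.61 higher, but its 3 other probes ranged from -0.62 to 0.60, and the sham arrays read 531 and 410. Adamts15, which cleaves versican and aggrecan, read 3924 and 2162, 0.86 higher, while sham lungs read 4465 and 5046. Mmp2, gelatinase A, read 1756 and 1200, 0.55 higher, and Mmp8, the neutrophil collagenase, read 491 and 324, beside 879 and 181 in sham lungs. Mmp9, gelatinase B, read 165 and 193 in ORX lungs and 312 and 130 in sham lungs. Of 15 measured matrix metalloproteinases 1 was higher and 0 lower, with a median of 0.09. Of 13 measured cathepsins 11 stood above 0, none past 2-fold, with a median of 0.14, and Ctss, the elastin-cleaving cathepsin of antigen-presenting cells, read 33061 and 22260, 0.57 higher.

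Protease inhibitors, named in the study's title, mostly stayed within 2-fold between the ORX arrays. That held for 34 of 36 measured serpins, 17 of 18 cystatins and stefins and 18 of 19 WAP, Kunitz and Kazal inhibitors. Over all genes measured 0.687% passed 2-fold, a smaller share than in each of these lists. Wfdc21, a small whey acidic protein of neutrophils and macrophages, read 3611 with PPE and 1718 with PBS, 1.07 higher, beside 3248 and 1045 in sham lungs. Slpi, the secretory leukocyte peptidase inhibitor, read 19343 and 21006, and in sham lungs 19402 and 12594. Among metalloproteinase inhibitors, 0 of 7 passed 2-fold, and Timp1 read 1863 and 1688. Of 36 measured serpins 2 were lower, both dim: Serpina1a, an alpha-1 antitrypsin paralog, read 24.0 with PPE and 80.1 with PBS, and Serpina1c read 25.2 and 66.6. Their differences of -1.74 and -1.40 became -0.69 and -0.45 after normexp. On sham/PPE the same probes read 251 and 210, and on sham/PBS 53.4 and 53.0, so ORX/PPE was the lowest and sham/PPE the highest of the 4 arrays. The mouse Serpina1 paralogs are near-identical, and a probe may take signal from several of them, which was not tested. Serpina1b read 122 and 155, a difference of -0.34, and Serpina3n read 560 and 604.

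Liver transcripts did not share a single order of arrays. ORX/PPE was the lowest of the 4 for 11 of 29, against 26.45% of all genes measured on 4. Alb, serum albumin, read 54.4 on ORX/PPE and 136 on ORX/PBS, and Ahsg, fetuin-A, read 104 and 145, while sham/PPE read 182 and 471 and sham/PBS 87.8 and 99.0 for the same genes. Apoa1 was well above background on 1 of the 2 ORX arrays, at 17.6 and 4.05, and Ttr on neither. The summed signal of 29 measured liver genes was 69260 with PPE and 70440 with PBS, 3 were lower and 0 higher, and the median was -0.06. The part of liver RNA in the serpin values was not tested. The cysteine protease inhibitors of the stefin family, which neutrophils carry, stayed close on the ORX arrays: Stfa2l1 read 306 and 299 there and 569 and 135 in sham lungs, and Stfa2 read 349 and 291 beside 571 and 152. Of 18 measured cystatins and stefins 1 was lower in ORX lungs (Cst13, at 15.5 and 31.4, left at -0.18 by normexp), and 9 were higher in sham lungs, where 0.922% of genes were.

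Neutrophil genes stood mostly above 0, with less height than in sham lungs. Il1r2, the decoy receptor for interleukin 1, read 603 with PPE and 265 with PBS, 1.19 higher, with another probe at 0.75, beside 1003 and 316 in sham lungs. Cxcr1, a receptor for neutrophil chemokines, read 92.2 and 31.7, 1.54 higher, and normexp left it at 0.82. Retnlg read 2289 and 1276, 0.84 higher, beside 3332 and 734 in sham lungs. The alarmins S100a8, at 12413 and 9966, and S100a9, at 45619 and 34513, differed by 0.32 and 0.40 in ORX lungs and by 2.36 and 1.98 in sham lungs. For all of these genes ORX/PPE lay above ORX/PBS and below sham/PPE. Ltf, the iron-binding lactoferrin of neutrophil granules and airway glands, read 3114 and 5443, a difference of -0.81. Of 35 measured neutrophil genes 3 were higher and 0 lower, 26 stood above 0 and the median was 0.16, while in sham lungs 17 of 33 were higher with a median of 1.03. The difference between the surgeries was not tested.

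Among secreted inflammation genes, Saa3 and Gdf15 were past 2-fold before and after normexp. Saa3, an acute phase apolipoprotein made in lung, read 1554 with PPE and 602 with PBS, 1.37 higher, beside 1382 and 566 in sham lungs. Gdf15, a stress-induced cytokine of the TGF-beta family, read 583 and 217, 1.43 higher, beside 604 and 352. Ccl6, a chemokine of macrophages and neutrophils, read 38063 and 20581, 0.89 higher, beside 32959 and 12511. For these 3 genes both PPE arrays lay above both PBS arrays. Hamp, which encodes the iron hormone hepcidin, read 120 and 297, a difference of -1.30 that became -0.94 after normexp, with both sham arrays near ORX/PBS at 298 and 309. Cxcl5, a neutrophil chemokine of epithelium, read 51.7 and 21.0 in ORX lungs, and 215 and 270 in sham lungs, so both ORX arrays lay below both sham arrays. Normexp left its difference of 1.30 at 0.59. Of 31 measured CC chemokines and receptors 0 passed 2-fold, 21 stood below 0 and the median was -0.15, with Ccl6 the highest. Of 20 measured acute phase genes 1 was higher, 1 was lower and 12 stood below 0, with a median of -0.03. Of 33 interleukin and TNF system genes Il1r2 alone was higher.

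Mucous and secretory airway genes split. Clca1, a secreted goblet cell protein that processes mucus, read 6289 with PPE and 1664 with PBS in ORX lungs, 1.92 higher or 3.78-fold, and 1534 with PPE and 2841 with PBS in sham lungs, a difference of -0.89. ORX/PPE stood alone above the other 3 arrays. Slc26a4, the anion exchanger pendrin, read 989 and 262, 1.92 higher, beside 1119 and 417. Itln1, an epithelial lectin, read 191 and 60.3, 1.66 higher, beside 412 and 74.4, but its other probe differed by 0.23. Mucins did not share this: Muc5b read 17366 and 19514, and Muc5ac read 156 and 144. Agr2, a disulfide isomerase needed for mucin folding, read 425 and 644, a difference of -0.60. Of 21 measured goblet and mucous genes 3 were higher and 0 lower, with a median of -0.03. Bpifa1, an antimicrobial protein of upper airway epithelium, read 22395 and 40945, a difference of -0.87, with both sham arrays higher at 59198 and 76922. Krt15, a keratin of basal cells, read 199 and 509, a difference of -1.35, and Krt5 read 125 and 232, a difference of -0.89, while Trp63, the basal cell transcription factor, read 3934 and 3716. Sham lungs went the other way for Krt15, at 688 with PPE and 373 with PBS.

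Genes of structural lung cells stayed within 2-fold except Pln. Of the 40 ciliated cell genes 31 stood below 0 with a median of -0.04, and the same 31 were below 0 in sham lungs, where the median was -0.52. Alveolar type 2 genes, 32 in all, had a median of 0.06, 29 alveolar type 1 genes -0.10, 40 endothelial genes -0.13 and 36 fibroblast genes -0.07, with 0 past 2-fold in each. Smooth muscle and pericyte genes lay at a median of -0.05, and 1 of 26 was lower (Pln, a regulator of the calcium pump that heart shares, at 28.2 and 72.5). Of 14 mesothelial genes 0 passed 2-fold, 10 stood below 0 and the median was -0.29. Upk3b, a uroplakin of mesothelium, read 962 and 1443, a difference of -0.59.

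Genes of glucocorticoid response and fasting had the highest list median, 0.37, of the 58 lists described. Pdk4, the kinase that shuts pyruvate off from oxidation, read 1250 with PPE and 560 with PBS, 1.16 higher, while the sham arrays read 1285 and 1476. ORX/PBS was therefore the array that stood apart, below the other 3. The same order held for Angptl4, an inhibitor of lipoprotein lipase, at 12614 and 6643 beside 16978 and 20636, and for the cell cycle inhibitor Cdkn1a, at 2245 and 1286 beside 2930 and 3450. Mt2 read 21623 and 11265, 0.94 higher, beside 23539 and 20237, and Mt1 read 43301 and 26529, 0.71 higher, beside 39776 and 35639. Ddit4, an mTOR inhibitor induced by stress and glucocorticoids, read 23297 and 13940, 0.74 higher, beside 25704 and 20250. Of 35 measured genes 1 was higher and 0 lower, 29 stood above 0, and ORX/PBS was the lowest of the 4 arrays for 19, against 22.3% of 19104 genes measured on all 4. Trim63, another member, was well above background on ORX/PBS but not on ORX/PPE, and its bound, given below, is on the lower side. Glucocorticoid-induced Tsc22d3, at 47510 and 38021, and Zbtb16, at 6311 and 6800, differed by 0.32 and -0.11.

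Immediate early genes, which respond to stimulation within minutes and to the handling of tissue, held 1 gene past 2-fold. Egr1, a zinc finger factor, read 1854 with PPE and 4376 with PBS, a difference of -1.24, and the sham arrays lay between at 3380 and 3177. Fos read 3549 and 7011, a difference of -0.98, and Fosb read 316 and 631, 1.99-fold lower and just inside 2-fold. Jun, their partner in AP-1, read 20448 and 19741. Ptgs2, the inducible prostaglandin synthase, read 297 and 505, a difference of -0.76, and was lower in sham lungs too, at 253 and 652. Of 31 measured immediate early genes 1 was lower, 0 higher and 16 stood above 0, with a median of 0.01.

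Interferon response genes stood slightly below 0 across most of the list. Ifi27l2a, an interferon-induced mitochondrial protein, read 16460 with PPE and 23909 with PBS, a difference of -0.54, beside 26115 and 20914 in sham lungs. Ifit3 read 2606 and 3745, a difference of -0.52, beside 2629 and 2044. The guanylate-binding protein Gbp2 read 2663 and 3520, a difference of -0.40. Of 43 genes 0 passed 2-fold and the median was -0.20, and 38 stood below 0, against 49.6% of all genes. ORX/PPE was the lowest of the 4 arrays for 31 of them, against 26.4% of all genes measured on 4 arrays. Of 28 measured natural killer and cytotoxic genes 25 stood below 0, against the same 49.6%, with a median of -0.18. Ncr1, an activating receptor of natural killer cells, read 56.5 and 85.0. T cell genes had a median of -0.02, with Cd3e at 1217 and 1235, and 1 of 29 was higher: Pdcd1, the PD-1 receptor, at 70.3 and 22.2, which normexp left at 0.76. Class II antigen presentation genes had a median of 0.18, with 11 of 16 above 0.

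**Figure D3:**
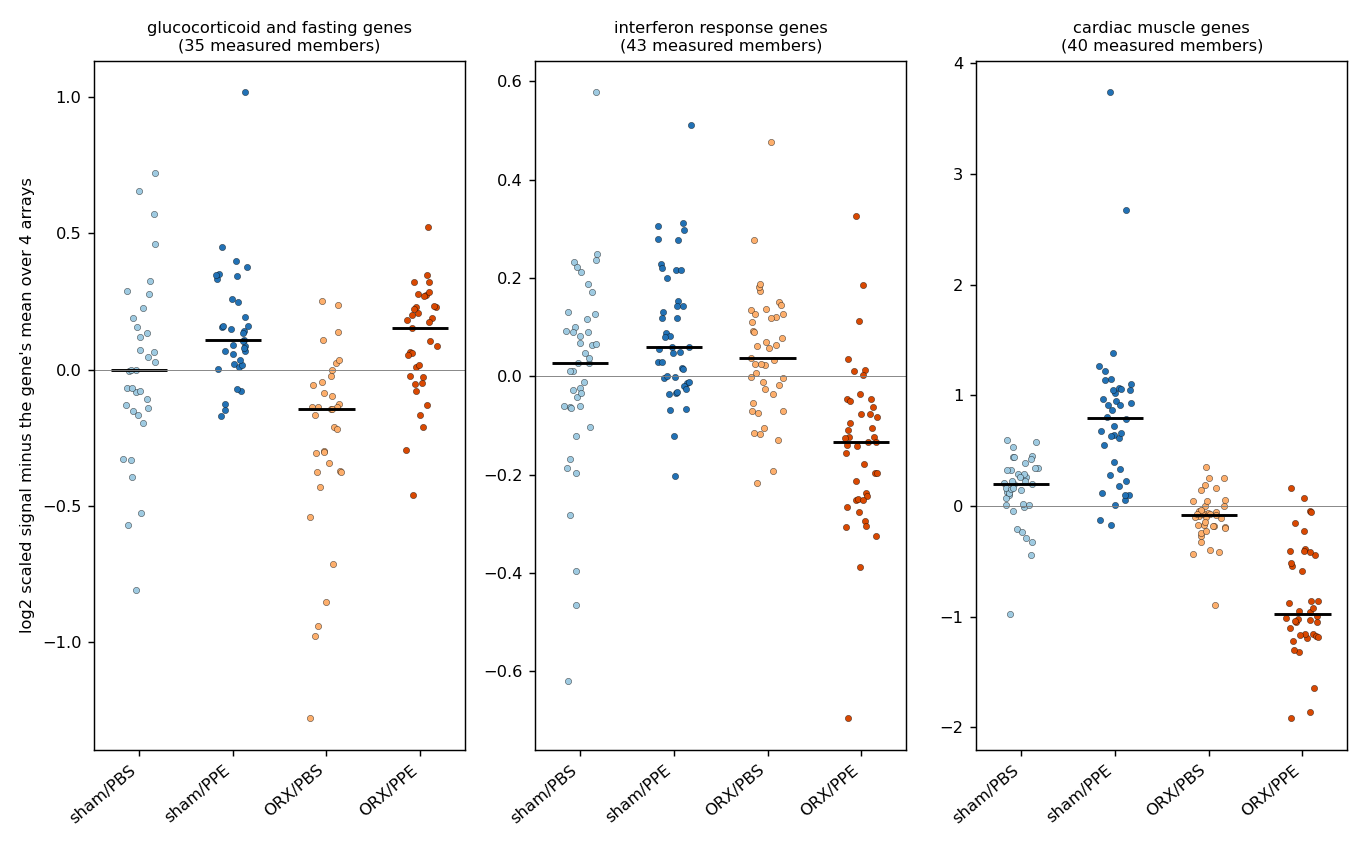
Each point is 1 gene, plotted as its log2 scaled signal on 1 array minus its mean over the 4 arrays, with a black line at the list's median on that array. Glucocorticoid and fasting genes lie lowest on ORX/PBS, interferon response genes lowest on ORX/PPE, and cardiac muscle genes highest on sham/PPE and lowest on ORX/PPE. Panels have their own vertical scales, and points of 1 panel share the same 4 arrays.

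Heart muscle genes had the lowest list median, and among the 10 brightest named lower genes Egr1, Thrsp and Krt15 were those outside the list. Nppa, the atrial natriuretic peptide, read 1761 on ORX/PPE and 4937 on ORX/PBS, a difference of -1.49, and its other probe gave -1.49, while sham/PPE read 42677 and sham/PBS 5316. Sln, the atrial calcium pump regulator sarcolipin, read 3667 and 7865, 2.14-fold lower, beside 17855 and 9307. Myh6, the alpha myosin heavy chain, read 3804 and 7886, a difference of -1.05, with another probe at -0.49, beside 18639 and 11105. Mb, myoglobin, read 995 and 2129, also 2.14-fold lower, beside 4348 and 2666. In each of these 4 genes ORX/PPE was the lowest and sham/PPE the highest array. The atrial light chains Myl7, at 7038 and 13824, and Myl4, at 6888 and 13338, differed by -0.97 and -0.95. Csrp3, at 244 and 525, Ckmt2, at 196 and 418, and Myl1, at 963 and 1932, passed 2-fold but fell inside it after normexp, at -0.95, -0.86 and -0.96. Of 40 measured cardiac genes 11 were lower and 0 higher, against 0.239% and 0.448% of all genes. Of the 40, 37 stood below 0, against 49.6% of all genes. The cardiac median was -0.85, and after normexp 4 were lower with a median of -0.59. Myh7, the beta heavy chain, was an exception at 2293 and 2129.

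ORX/PPE was the lowest of the 4 arrays for 36 of the 40 cardiac genes, against 26.45% of all genes measured on 4, and sham/PPE the highest for 32. The summed signal of the cardiac genes was 47870 with PPE and 85750 with PBS on the ORX arrays. Mouse lung veins carry cardiac muscle and dissected lungs can hold atrium or vessel, and the amount of such tissue in each pool was not tested. Of 19 measured skeletal muscle genes 2 were lower, Ckm and Myl1, which the cardiac list holds too, and the median was -0.36. Acta1 read 191 and 306, Tnnt3 read 296 and 406, and Myh4 read 24.7 and 23.4. Fat genes were mixed, with Thrsp, a lipogenic factor, at 1060 and 2573, a difference of -1.28 (its other probe -1.38), and Adipoq, adiponectin, at 688 and 1300, a difference of -0.92. Sham lungs read 1610 and 1062 for Thrsp and 1772 and 951 for Adipoq. Brown fat Ucp1 was not well above background on ORX/PPE and read 12.8 on ORX/PBS, against 2219 on sham/PPE. Of 27 measured adipose genes 1 was lower, 0 higher and 19 stood below 0, with a median of -0.17. The spermatid gene Prm2 read 42.8 and 28.1, against 692 on sham/PPE. Of 16 measured germ cell genes 2 were lower and 0 higher, with a median of 0.07.

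**Figure D4:**
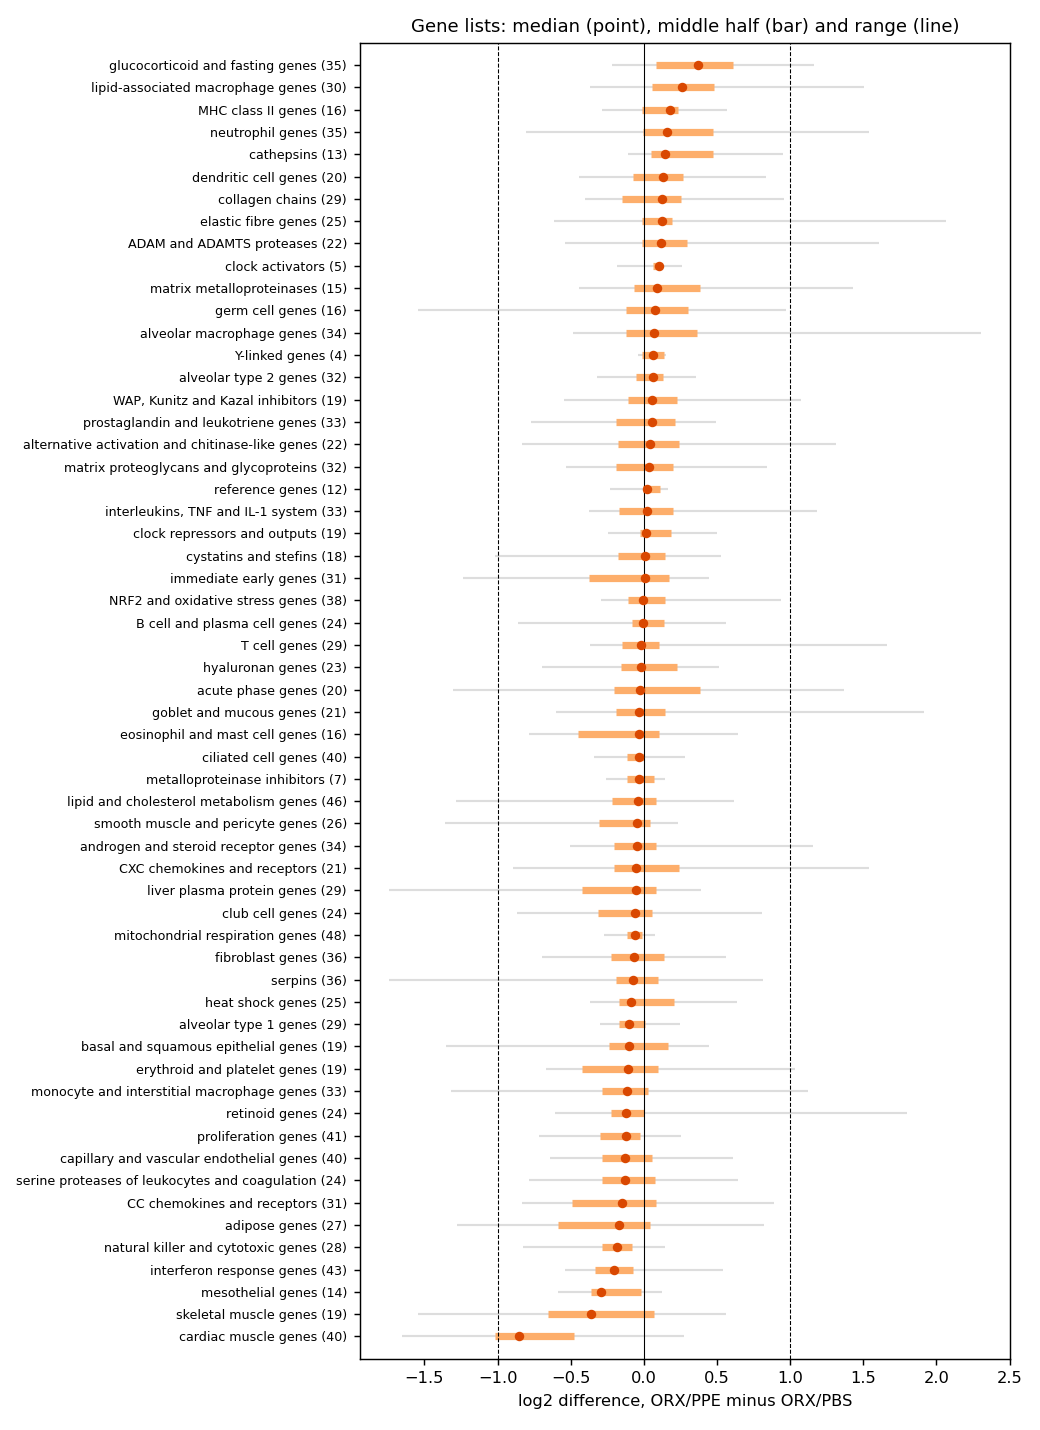
Each line is 1 of the gene lists with its number of genes measured on both arrays in brackets, sorted by median, with the log2 difference of ORX/PPE minus ORX/PBS across. The point is the median, the thick bar the interquartile range and the thin line their range, and dashed lines mark 2-fold. Cardiac muscle genes, at a median of -0.85, lie apart from every other list, and the glucocorticoid and fasting list has the highest median at 0.37.

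Retinoid and remaining genes of the rule complete the list. Stra6l, a receptor for retinol binding protein, read 120 with PPE and 34.4 with PBS, 1.80 higher and 1.04 after normexp, beside 98.8 and 35.8 in sham lungs. Mcpt-ps1, a mast cell protease pseudogene, read 774 and 377, 1.04 higher and 0.95 after normexp, inside 2-fold, beside 782 and 414. Both had the PPE arrays above the PBS arrays. Of 24 measured retinoid genes Stra6l alone was higher, and 18 stood below 0.

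Some genes were well above background on 1 ORX array only, so their difference is a bound, for which the dim side was set to its own signal or, if higher, to the floor of detected probes on that array. Past 2-fold were 56 such genes on the higher and 26 on the lower side, all dim. Pate4 was at least 7.34-fold higher at 61.8 on ORX/PPE, and it was not well above background on the other 3 arrays. Cd200r2, an activating relative of the CD200 receptor, was at least 4.99-fold higher at 42.0, and read 45.4 on sham/PPE. Fgf2os, Zfp300 and Awat1 followed at 3.22-fold, 2.97-fold and 2.74-fold or more. On the lower side C1ql2, Grik2, Topaz1, the cytokine gene Il25 and the muscle ubiquitin ligase Trim63 were at least 2.77-fold, 2.72-fold, 2.72-fold, 2.52-fold and 2.44-fold lower.

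Sham lungs give the same contrast on a separate pair of arrays. Of the 88 higher genes 73 were measured there, 52 stood above 0, 17 were past 2-fold the same way and 1 the other way, with a median of 0.40. Of the 47 lower genes 46 were measured there, 13 stood below 0, 1 was past 2-fold the same way and 7 the other way, with a median of 0.34. Among all genes in sham lungs 0.922% were higher and 0.278% lower. The order of the 4 arrays differed between the sides: of the 17 higher genes that stayed past 2-fold after normexp, 15 had both PPE arrays above both PBS arrays, and of the 8 such lower genes, 1 (Cd209f) had both below. For those 8 lower genes ORX/PPE was the lowest of the 4 arrays. The members were chosen by the ORX difference, so these orders are a description.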

How the data were processed

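Lung RNA of 4 pools of 5 mice was measured on 1-colour Agilent arrays of design 074809, 1 array per group, all labelled with Cy3 per the labels' protocols. Per the file headers, spots carry a processed linear intensity from which background was subtracted, not yet normalized across arrays. The series' value table also holds linear intensity values, as deposited by the authors, and was used as an alternative. Feature Extraction 10.7.1.1 made the files per the file headers, while the submitters' processing notes name 9.5.1.1, which could not be settled here.

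Control spots and outlier spots (54 of 59305 on ORX/PBS, 46 on ORX/PPE) were left out, with 0 saturated. Replicate spots were averaged per probe, and values were put on a log2 scale relative to the array's 75th percentile. Probes were named by accession (32994), symbol (10224) or synonym (520) through the RefSeq table of GRCm38.p6, 2130 kept the file's name and 10737 had none. The brightest unsaturated probe stood for a gene. No p-values were computed, since each group was 1 array, and 2-fold was used as a size. Probes spotted several times, 300 in number, gave a median spot SD of 0.03, or 0.05 for a difference, which covers spots and not mice. The 10 spike-in probes differed by a median of 0.09.

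Genes named are the 15 highest and lowest past 2-fold before and after normexp (offset 50), the 10 brightest past 2-fold and the 5 largest bounds in each direction, and members of 58 gene lists. These members and lists were chosen with earlier results of these data known. Genes with clone, locus or receptor-family names were counted only. Alternatives were normexp, quantile normalization, median centring, no background filter, a filter on all 4 arrays, the mean of a gene's probes, outlier spots kept, the value table and a 1.5-fold threshold. The steps were tested on simulated data with known fold changes, whose noise does not cover variation between mice. Promoter sequences came from RefSeq, 250 bases before to 50 after the start. Tools were R 4.3.3, limma 3.58.1, Python 3.11.15, numpy 2.4.6, pandas 2.3.3 and matplotlib 3.10.9.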

Additional observations from a re-analysis of the deposited data

Results flagged for a closer look

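Genes that lay past 2-fold in opposite directions in the 2 surgeries are given here as log2 differences of PPE minus PBS, from separate pairs of arrays; the difference between the surgeries was not tested, and each value rests on 1 pooled array a side. Nppa, the atrial natriuretic peptide, stood at -1.49 in ORX and 3.00 in sham lungs, and at -1.48 and 2.95 after normexp. It was the bright member of the group. The alpha-1 antitrypsin paralogs Serpina1a, at -1.74 and 2.23, and Serpina1c, at -1.40 and 1.99, were dim, as was Alb, serum albumin, at -1.33 and 1.05. Smpx, a small protein of striated muscle, stood at -1.23 and 1.07, Lrr1 at -1.18 and 1.15, and Cst13, a cystatin, at -1.02 and 1.31. After normexp the ORX values of Serpina1a, Serpina1c, Alb, Smpx, Lrr1 and Cst13 were -0.69, -0.45, -0.73, -0.62, -0.28 and -0.18, all inside 2-fold. A probe for the olfactory receptor Olfr1500, counted with the receptor families above, stood at 1.79 in ORX and -1.01 in sham lungs, and at 0.92 and -0.37 after normexp.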

How the results depend on the processing

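Against 88 higher and 47 lower genes, normexp with an offset of 50 gave 17 and 8, no filter on background gave 916 and 823, and a 1.5-fold threshold gave 511 and 367. The other settings gave between 73 and 88 higher and between 42 and 50 lower genes. Of the 135 genes past 2-fold, 25 stayed so after normexp, 120 with the mean of a gene's probes and 129 in the series' value table, and none had its sign turned by these settings, quantile normalization, median centring, outlier spots kept or no filter, nor did any of the 119 that the filter on all 4 arrays left with a value. Normexp compresses differences of dim probes by its construction, and moved 21 of 29 single-gene differences and 17 of 58 list medians. Normexp also took the median over all measured genes from 0.002 to 0.035, so moved list medians hold that shift too. It turned the sign of several list medians near 0. Of these the basal and squamous median lay farthest from 0 in the main values, going from -0.10 to 0.01. A value counted as moved if it shifted by 0.045 or more, the spot SD of a difference. Without the background filter the share of higher among all calls was 52.7%, against 65.2% in the main values. Of 20 genes past 2-fold with another measured probe, 18 had it on the same side and 5 past 2-fold. No paired analysis was possible because each group was 1 array, and for the same reason no replicate could be left out. Signal over background limits the dim genes, which held most calls, and the spread between mice of a pool is not known.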
